A study of Mus musculus with 6 samples.

Results

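The genes described here are named for the ubiquitin-conjugating enzymes, or E2s, and were followed in mouse embryonic fibroblasts under DNA damage. They were chosen by name: a gene symbol that starts with Ube2 followed by a lower-case letter, with Ube2c left out. Of the 54532 genes in the deposited table, 42 matched, and the 32 that averaged 1 FPKM or more over all 6 libraries are described. FPKM is a read count scaled to gene length and library size, and the length used is that of all annotated exons of a gene together. Where this exceeds the transcript in use, FPKM understates the level, so levels of different genes compare only roughly: for Ube2w the exon length is 9.08 times that of its principal transcript. That mean chose the genes and is not a result. Ube2n-ps1 lay just inside the threshold with a mean of 2.47 FPKM and Ube2v1 just outside it with 0.83 FPKM. All 32 also reached a mean of 1 FPKM in each group taken alone. Of these, 30 are protein coding, and Ube2d-ps and Ube2n-ps1 are pseudogenes. Ube2cbp is protein coding but encodes a ligase. All 32 are counted as E2 genes below. Of the 10 genes left below the threshold, Ube2dnl1, Ube2dnl2, Ube2d4, Ube2uos and Ube2l3-ps1 were listed at 0 FPKM in every library, and Ube2v1, Ube2d2b, Ube2u, Ube2nl and Ube2ql1 were above 0 in at least 1 library.

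Both groups consist of mouse embryonic fibroblasts that carry the adenoviral oncoprotein E1A and the activated Ras oncoprotein HRasV12, exposed to doxorubicin at 0.2 ug/ml for 6 h. The 3 shMettl3_dox libraries come from cells with a hairpin against Mettl3, the enzyme that methylates adenosines of mRNA at the N6 position. The 3 shLuc_dox libraries come from cells with a control hairpin. No library without doxorubicin was analysed here, so each difference is one between hairpins in damaged, oncogene-carrying cells. The labels name neither clones nor separate cultures.

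Ubiquitin reaches its targets through a relay. An E1 enzyme activates it, an E2 carries it on a cysteine, and an E3 ligase brings the loaded E2 to a substrate. The E2 often decides which chain is built: chains through Lys48 mark proteins for the proteasome, and chains through Lys63 serve in DNA repair and signalling. A few E2s carry NEDD8, ISG15 or another small modifier in place of ubiquitin.

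Mettl3 mRNA, the check of the labels, was at 1.29, 1.53 and 1.65 FPKM in shMettl3_dox libraries, against 2.47, 3.14 and 2.59 FPKM in shLuc_dox libraries. It fell by 0.58 on the log2(FPKM + 1) scale (limma adjusted p = 0.00861). The reads recovered from FPKM totalled 17533257 to 25290886 per shMettl3_dox library and 16906104 to 20026363 per shLuc_dox library. Correlations of log2(FPKM + 1) over tested genes were at least 0.982 within shMettl3_dox and 0.985 within shLuc_dox, and 0.969 to 0.975 between groups. Of 8 fibroblast markers, 4 had a mean of at least 1 FPKM, led by Vim, and their sum was 815 to 890 FPKM in shMettl3_dox libraries, against 923 to 976 FPKM in shLuc_dox libraries. Vim alone set that direction, with a mean of 703 FPKM in shMettl3_dox and 818 FPKM in shLuc_dox. Sparc was called higher, with 39.6 ± 0.338 FPKM in shMettl3_dox and 31.2 ± 0.657 FPKM in shLuc_dox (adjusted p = 0.00123), and Fn1 (95.6 and 88.5 FPKM in the same order of groups) and Pdgfrb (4.93 and 4.57 FPKM) did not pass. The other fibroblast markers, Thy1, Col1a1, Col1a2 and Col3a1, had means below 1 FPKM. The sum of 5 muscle markers, nearly all Des, was 2.62 to 3.31 FPKM in shMettl3_dox libraries and 5.95 to 6.83 FPKM in shLuc_dox libraries, with Myf5 at 0. The sum of 5 immune markers, nearly all Cd68, was 9.40 to 11.1 FPKM in shMettl3_dox libraries and 15.3 to 18.0 FPKM in shLuc_dox libraries, with Cd3e at 0. The sum of 5 epithelial markers, nearly all Epcam, was 2.28 to 3.15 FPKM in shMettl3_dox libraries and 3.70 to 4.54 FPKM in shLuc_dox libraries, with Krt14 at 0, and those of 5 endothelial and 5 neural markers stayed below 0.4 FPKM. The part of these differences in the results below was not tested. In bulk RNA, fewer cells of a type and less RNA per cell cannot be told apart.

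Among the E2s, Ube2j1 and Ube2l6 had the largest rises with the hairpin against Mettl3, each 1.63- to 1.64-fold, and Ube2g2, Ube2l3, Ube2z and Ube2e3 were also higher in every alternative run, whereas the CTLH partner Ube2h fell. Of the 32 genes, 10 were higher and 2 were lower in shMettl3_dox, and 20 did not pass (limma on log2(FPKM + 1), two-sided, Benjamini-Hochberg adjusted p under 0.05 over the 12098 genes that averaged 1 FPKM or more). That is 31.3% higher and 6.25% lower. Over all tested genes the background was 28.1% called in either direction, 14.6% higher and 13.5% lower. The share of E2 genes called higher was therefore above the background and the share called lower was below it, as a description of a small set that was not itself tested. The median level was 15.1 FPKM in the E2 genes and 8.66 FPKM over all tested genes, and the background depends on level. Among genes that averaged 5 FPKM or more, 10 of 26 E2 genes were higher and 2 lower, against backgrounds of 20.4% and 14.9%. The log2 changes ran from -0.34 for Ube2h to 0.67 for Ube2j1, with a median of 0.12 against 0.01 over all tested genes, and 25 were above 0. The 3 values of each group did not overlap for 17 of the 32 genes, 14 higher and 3 lower, or 53.1%, against a background of 45.1% (23.6% higher and 21.5% lower). Without Ube2cbp, Ube2d-ps and Ube2n-ps1, 10 of 29 genes were called higher and 2 lower, and 22 changes were above 0. Of these 29, 13 did not overlap on the higher side and 3 on the lower. The same backgrounds stand beside these counts.

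The scaling of the libraries bears on the balance of calls. Protein-coding genes summed to 270147 to 275689 FPKM in shMettl3_dox libraries and 263797 to 266712 FPKM in shLuc_dox libraries. With each library scaled to that sum, 7 E2 genes were higher (background 10.4%) and 2 lower (15.9%), and over all tested genes 1264 were higher and 1922 lower, against 1763 higher and 1633 lower without it. The direction of none of the 12 called E2 genes turned under this or any other of the 17 alternatives run. Without the filter on low values 6 were higher (background 4.47%), and 6 were also higher without shMettl3_dox replicate 1 (8.76%) and without shLuc_dox replicate 1 (8.75%). With array weights 14 were higher (19.6%). Of the genes called lower, 1, Ube2h, was lower without shMettl3_dox replicate 1 (background of lower genes 9.62%), shLuc_dox replicate 1 (9.19%) or shLuc_dox replicate 2 (8.76%). The called genes Ube2j1, Ube2e3, Ube2l3, Ube2z, Ube2g2, Ube2h and Ube2l6, 7 in all, kept the call in every alternative that tested them.

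**Figure D1:**
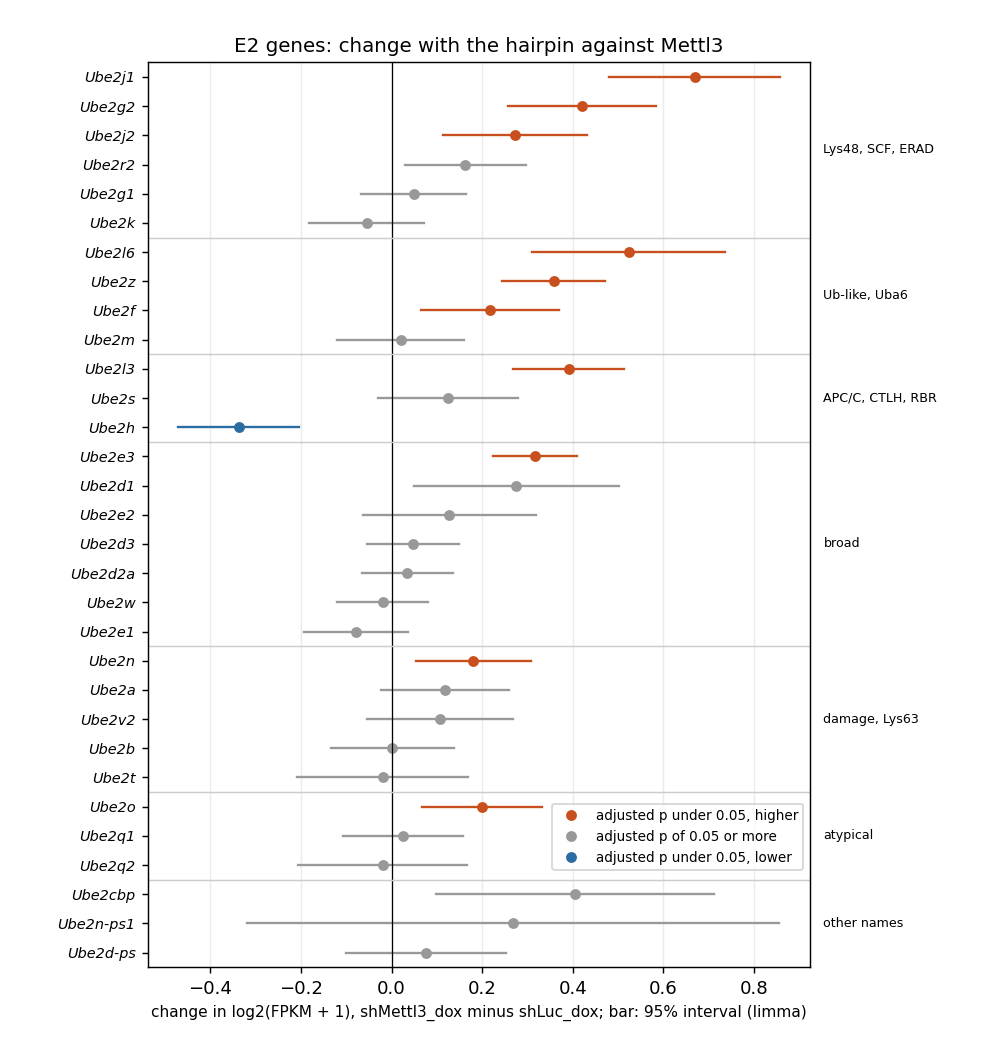
Change in log2(FPKM + 1), shMettl3_dox minus shLuc_dox, of 31 E2 genes in the order of their roles, with the 95% interval from limma (n = 3 libraries each). Ube2j1 stands at the right with 0.67 and Ube2h at the left with -0.34, and the genes that passed the test are coloured.

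**Figure D2:**
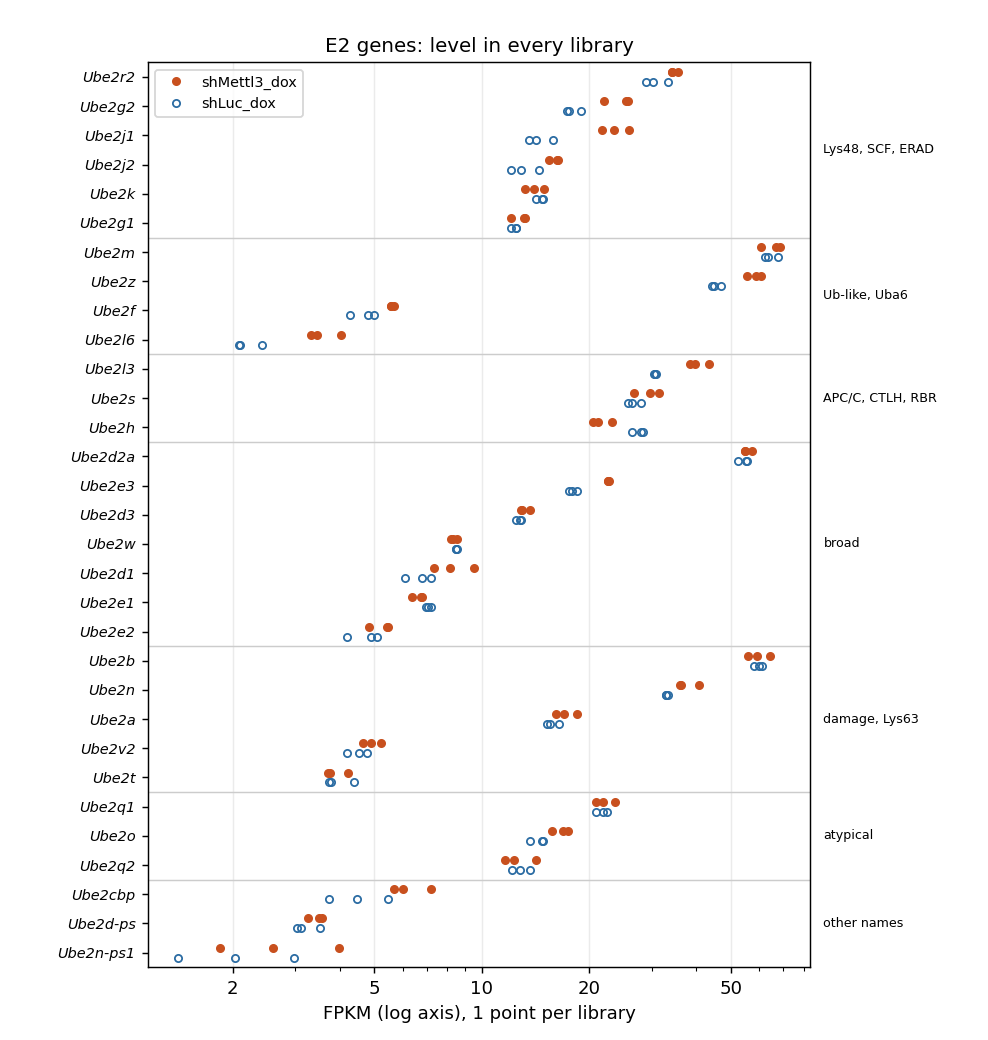
FPKM of 31 E2 genes in each library on a log axis, filled for shMettl3_dox and open for shLuc_dox. The mean levels span 26.3-fold, from Ube2n-ps1 to Ube2m.

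Promoter windows of Ube2j1, with the largest log2(FPKM + 1) rise, and of Ube2h, with the largest fall, are shown because both hold a motif of the cyclic AMP response element type. The window of Ube2l6, whose rise by ratio of FPKM was 1.64-fold against 1.63-fold for Ube2j1, holds no such motif and is shown for that. Ube2b, which holds such a motif too, is set beside them as a gene that did not pass the test. The windows are RefSeq promoter sequences of GRCm38.p6, 300 bases each, that reach from upstream of a RefSeq start to 50 bases past it, on the strand of the gene. The Ube2j1 window is chr4:33031130-33031429 on the plus strand, the Ube2l6 window chr2:84798578-84798877 on the plus strand, the Ube2h window chr6:30304490-30304789 on the minus strand and the Ube2b window chr11:52000737-52001036 on the minus strand. Capitals mark TGACGTG, here on the opposite strand and so read as its complement from position -67, in Ube2j1, and TGACGTCA from position -24 in Ube2h and position -1 in Ube2b, counting the start base as 0.
Ube2j1: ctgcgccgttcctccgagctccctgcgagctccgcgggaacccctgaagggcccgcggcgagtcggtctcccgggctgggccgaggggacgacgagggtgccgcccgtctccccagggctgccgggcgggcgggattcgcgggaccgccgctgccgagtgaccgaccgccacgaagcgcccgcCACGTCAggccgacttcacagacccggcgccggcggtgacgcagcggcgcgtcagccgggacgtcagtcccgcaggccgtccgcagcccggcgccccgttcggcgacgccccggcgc
Ube2l6: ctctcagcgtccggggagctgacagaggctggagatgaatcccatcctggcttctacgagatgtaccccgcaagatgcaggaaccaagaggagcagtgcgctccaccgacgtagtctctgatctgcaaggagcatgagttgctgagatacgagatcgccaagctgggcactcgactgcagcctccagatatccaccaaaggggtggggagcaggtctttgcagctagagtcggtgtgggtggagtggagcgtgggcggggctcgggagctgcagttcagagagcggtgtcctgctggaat
Ube2h: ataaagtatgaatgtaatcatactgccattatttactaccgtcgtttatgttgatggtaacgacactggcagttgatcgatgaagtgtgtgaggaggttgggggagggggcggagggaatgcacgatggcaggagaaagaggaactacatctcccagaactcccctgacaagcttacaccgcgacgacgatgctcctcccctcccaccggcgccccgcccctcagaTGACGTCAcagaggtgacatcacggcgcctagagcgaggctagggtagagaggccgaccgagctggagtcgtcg
Ube2b: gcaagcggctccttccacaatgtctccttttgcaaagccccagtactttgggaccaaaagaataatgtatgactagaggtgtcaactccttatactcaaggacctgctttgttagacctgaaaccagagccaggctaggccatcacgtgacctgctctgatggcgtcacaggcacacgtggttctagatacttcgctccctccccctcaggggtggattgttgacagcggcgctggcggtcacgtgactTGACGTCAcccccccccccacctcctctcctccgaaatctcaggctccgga

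A window was found for 24 of the 32 genes, and the share of windows with a motif on either strand was set beside that of all 27025 windows. TGACGTG was in 1 E2 window (4.17% against 1.99% of all) and TGACGTCA in 2 (8.33% against 1.88%). GGGCGG, the core of GC boxes, was in 17 E2 windows (70.8% against 35.9%). CCAAT was in 5 (20.8% against 37.9%), CACGTG in 3 (12.5% against 7.24%), TATAAA in 2 (8.33% against 14.2%), TTTGAA in 2 (8.33% against 18.1%) and the p53 decamer in 1 (4.17% against 8.37%). The core of the interferon-stimulated response element and the endoplasmic reticulum stress element were in 0 of 24, against 3.49% and 0.13% of all windows. Motifs that overlap one another were each counted. These matches describe letters and are no evidence of binding.

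Of the 6 E2s that build Lys48 chains or serve the SCF ligase and the degradation of proteins at the endoplasmic reticulum, 3 were higher and 3 did not pass. Beside this count and that of each role below stand the backgrounds of 14.6% higher and 13.5% lower, and no role was tested as a set. The 3 higher genes were Ube2j1, Ube2g2 and Ube2j2. Summed over the 6 genes the level was 126 ± 0.855 FPKM in shMettl3_dox and 103 ± 2.53 FPKM in shLuc_dox (SD, n = 3 each). A higher sum was not particular to this role. Over all 32 genes it was 712 ± 6.45 FPKM in shMettl3_dox and 654 ± 7.53 FPKM in shLuc_dox. The mean sum of every other role was also higher in shMettl3_dox, as was that of all protein-coding genes. Ube2j1 (chr4:33031416-33052363, plus strand, coordinates here and below from GENCODE M21 on GRCm38) is anchored in the membrane of the endoplasmic reticulum and works with the ligase Syvn1. It was at 23.5, 21.7 and 25.9 FPKM in shMettl3_dox libraries, against 14.2, 13.5 and 15.8 FPKM in shLuc_dox libraries. The groups lay well apart, and the level was 1.63-fold higher (log2 change 0.67, SE 0.0796, limma adjusted p = 0.00172). That change exceeded 99.1% of those of all tested genes. Ube2g2 (chr10:77622275-77645993, plus strand) builds Lys48 chains on proteins drawn from the endoplasmic reticulum, and was at 25.8, 25.4 and 22.1 FPKM in shMettl3_dox libraries, against 18.9, 17.5 and 17.4 FPKM in shLuc_dox libraries. The groups did not overlap, and it was 1.36-fold higher (log2 change 0.42, SE 0.0688, limma adjusted p = 0.00545).

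Ube2j2 (chr4:155943831-155959604, plus strand), the other membrane-anchored E2 of the endoplasmic reticulum, was at 16.2, 16.3 and 15.5 FPKM in shMettl3_dox libraries, against 12.9, 14.4 and 12.1 FPKM in shLuc_dox libraries. The groups were apart by a narrow gap, with a log2 change of 0.27 (adjusted p = 0.0248 in limma, SE 0.0675). Its adjusted p came to 0.0764 without shMettl3_dox replicate 1, 0.0697 without shMettl3_dox replicate 2, 0.0794 without shLuc_dox replicate 1 and 0.0664 without shLuc_dox replicate 3. It was 0.0617 with no filter on low values. Of the 50-base stretches of Ube2j2, 13.5% also occur in another gene, among them Gm5801, which was at 9.51 ± 2.00 FPKM in shMettl3_dox and 7.36 ± 0.643 FPKM in shLuc_dox (limma adjusted p = 0.137), so part of its reads could be split between them. The 3 E2s of this role that did not pass are the SCF partner Ube2r2 and the Lys48 chain builders Ube2k and Ube2g1. Ube2r2 averaged 34.6 ± 0.816 FPKM in shMettl3_dox and 30.8 ± 2.20 FPKM in shLuc_dox, with a 95% interval of the log2 change from 0.03 to 0.30 and an adjusted p of 0.0726, which was 0.0291 without shLuc_dox replicate 3, 0.0395 with array weights and 0.04999 with edgeR. Ube2k averaged 14.0 ± 0.840 FPKM in shMettl3_dox and 14.6 ± 0.372 FPKM in shLuc_dox, and Ube2g1 12.8 ± 0.639 and 12.3 ± 0.202 FPKM in the same order of groups.

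Among the E2s that carry ISG15 or NEDD8 or take ubiquitin from the E1 enzyme Uba6, Ube2l6, Ube2z and Ube2f were higher and Ube2m did not pass. Ube2l6 (chr2:84798828-84810335, plus strand), the E2 of the interferon-induced modifier ISG15, was at 3.46, 3.32 and 4.03 FPKM in shMettl3_dox libraries, against 2.42, 2.09 and 2.08 FPKM in shLuc_dox libraries. Every shMettl3_dox library lay above every shLuc_dox library, and the level was 1.64-fold higher (log2 change 0.52, SE 0.0898, limma adjusted p = 0.00649), from 70 to 174 reads per library. Ube2z (chr11:96047432-96065388, minus strand), which is loaded by Uba6, was at 58.8, 60.8 and 55.4 FPKM in shMettl3_dox libraries, against 46.9, 44.7 and 44.1 FPKM in shLuc_dox libraries. The groups were separated by more than either group's own range, a 1.29-fold higher level (log2 change 0.36, SE 0.048, limma adjusted p = 0.00262).

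NEDD8, the modifier that switches on cullin-RING ligases, has a pair of E2s, of which 1 passed the test. Ube2f (chr1:91250304-91290337, plus strand), which serves the cullin partner Rnf7, was at 5.55, 5.55 and 5.69 FPKM in shMettl3_dox libraries, against 4.99, 4.27 and 4.79 FPKM in shLuc_dox libraries. The groups did not overlap, and the log2 change was 0.22 (adjusted p = 0.0449 in limma, SE 0.0644). This call is near the threshold: leaving out any 1 of the 6 libraries gave an adjusted p between 0.0556 (without shLuc_dox replicate 1) and 0.124 (without shLuc_dox replicate 2), and protein-coding scaling gave 0.0789. Ube2m, which serves the other cullins, had the highest FPKM of the 32 genes, at 68.7, 66.9 and 60.7 FPKM in shMettl3_dox libraries and 67.8, 62.2 and 63.4 FPKM in shLuc_dox libraries. These ranges overlapped almost wholly, with a 95% interval of the log2 change from -0.12 to 0.16 (limma adjusted p = 0.839).

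Of the 3 E2s tied to 1 ligase class each, 1 was higher, 1 was lower and 1 did not pass. Ube2l3 (chr16:17152013-17202649, minus strand) passes ubiquitin to ligases that take it on a cysteine, such as Parkin and the linear-chain ligase, and was at 39.7, 38.5 and 43.5 FPKM in shMettl3_dox libraries, against 30.4, 30.6 and 30.9 FPKM in shLuc_dox libraries. The shLuc_dox values were tight and all shMettl3_dox values lay above them, a 1.32-fold higher level (log2 change 0.39, SE 0.0516, limma adjusted p = 0.00247). Ydjc on the opposite strand overlaps 28.6% of the exon bases of Ube2l3, and nothing in the labels says whether reads were counted by strand. Ydjc was at 4.10 ± 0.747 FPKM in shMettl3_dox and 3.43 ± 0.310 FPKM in shLuc_dox. Ube2h (chr6:30211289-30304539, minus strand), the E2 of the CTLH ligase, was at 23.2, 21.2 and 20.5 FPKM in shMettl3_dox libraries, against 28.4, 26.4 and 27.9 FPKM in shLuc_dox libraries. The groups did not overlap, and it fell by 0.34 on the log2 scale (SE 0.0563, limma adjusted p = 0.00576), to 0.784 of the shLuc_dox level. Ube2s, which extends Lys11 chains with the anaphase-promoting complex, was at 29.3 ± 2.35 FPKM in shMettl3_dox and 26.7 ± 1.11 FPKM in shLuc_dox and did not pass (limma adjusted p = 0.202). Without shMettl3_dox replicate 3 its adjusted p was 0.0368, and with array weights it was 0.0370.

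**Figure D3:**
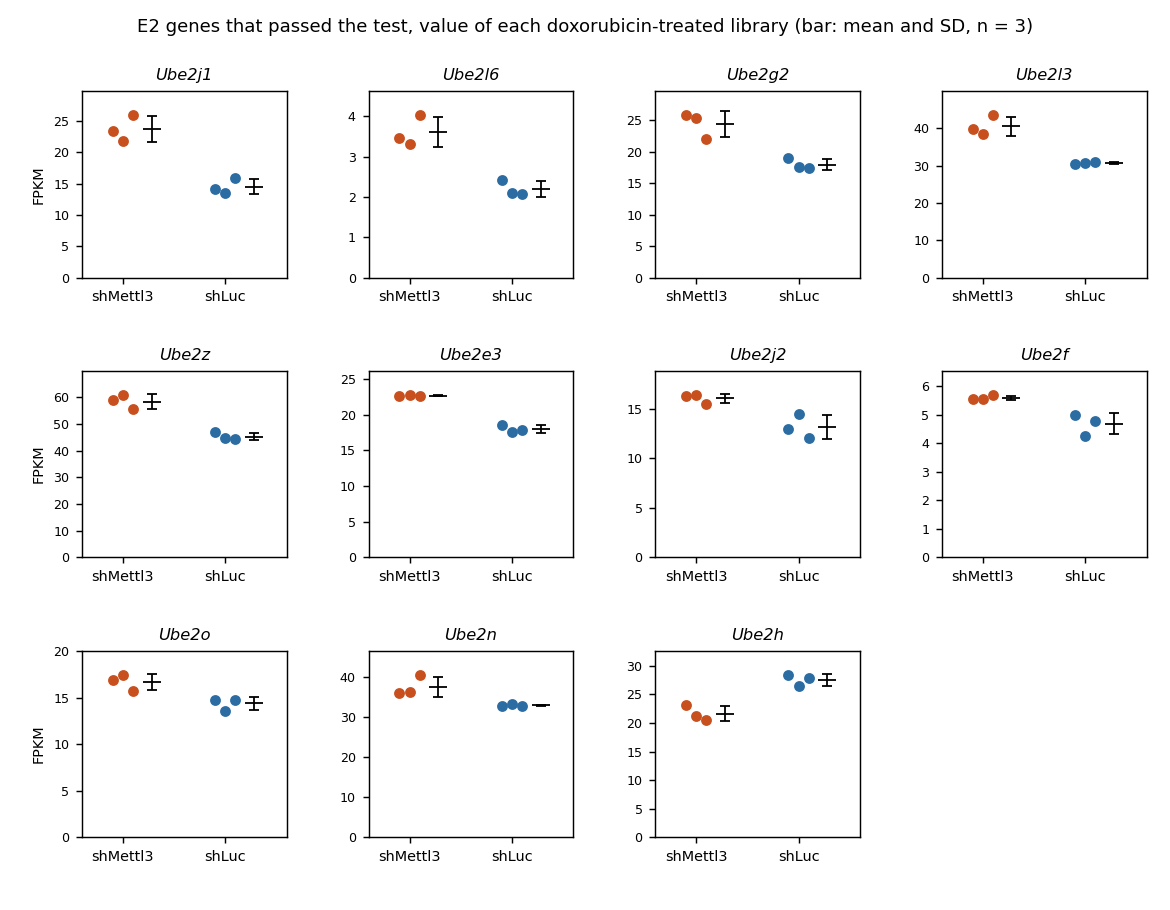
FPKM of each library for 11 E2 genes that passed the test, shMettl3_dox at the left of each panel and shLuc_dox at the right, with the mean and SD (n = 3 each) and an axis from 0. Ube2h is lower in all 3 shMettl3_dox libraries than in any shLuc_dox library, and the other 10 genes are higher in all 3.

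Of the 7 broad E2s, which work with many ligases, 1 was higher and 6 did not pass, with a median log2 change of 0.05. Ube2e3 (chr2:78868124-78921293, plus strand), whose close relatives mainly attach single ubiquitins, was at 22.6, 22.7 and 22.6 FPKM in shMettl3_dox libraries, against 18.5, 17.5 and 17.9 FPKM in shLuc_dox libraries. The shMettl3_dox libraries were nearly equal and stood above all shLuc_dox libraries, a 1.26-fold higher level (log2 change 0.32, SE 0.0393, limma adjusted p = 0.00202). Its relatives did not pass: Ube2e1 averaged 6.64 ± 0.227 FPKM in shMettl3_dox and 7.07 ± 0.120 FPKM in shLuc_dox, and Ube2e2 averaged 5.23 ± 0.364 and 4.71 ± 0.465 FPKM in the same order of groups. Nkiras1 overlaps 16.1% of the exon bases of Ube2e1 on the opposite strand. Ube2d2a, the UBE2D gene with the highest FPKM, was at 54.9, 54.9 and 57.3 FPKM in shMettl3_dox libraries and 52.2, 55.6 and 55.2 FPKM in shLuc_dox libraries. The ranges overlapped, with a 95% interval of the log2 change from -0.06 to 0.13 (limma adjusted p = 0.581). Ube2d1 averaged 8.33 ± 1.09 FPKM in shMettl3_dox and 6.69 ± 0.543 FPKM in shLuc_dox, with an adjusted p of 0.0724 by limma, 0.0277 by edgeR and 0.0213 by DESeq2, and of 0.0432 in limma without shMettl3_dox replicate 2 and 0.0415 with array weights. Ube2d3 averaged 13.2 ± 0.421 FPKM in shMettl3_dox and 12.7 ± 0.196 FPKM in shLuc_dox. Its FPKM was computed over exons of 24499 bases in all, 6.39 times the 3833 bases of its principal transcript. That multiple was 4.66 for Ube2d2a and 3.05 for Ube2d1, so the levels of these genes compare only roughly. Ube2w, which modifies the amino terminus of proteins, averaged 8.34 ± 0.144 FPKM in shMettl3_dox and 8.47 ± 0.0222 FPKM in shLuc_dox.

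Of the 5 E2s of DNA damage tolerance and Lys63 chains, 1 was higher and 4 did not pass. Ube2n (chr10:95515145-95545657, plus strand) encodes Ubc13, which builds Lys63 chains, and was at 36.0, 36.2 and 40.6 FPKM in shMettl3_dox libraries, against 32.9, 33.2 and 32.9 FPKM in shLuc_dox libraries. The groups did not overlap, with a log2 change of 0.18 (adjusted p = 0.0447 in limma, SE 0.0534). Its adjusted p rose above the threshold when any of 5 libraries was left out, to 0.0627 without shMettl3_dox replicate 1, 0.0592 without shMettl3_dox replicate 2, and 0.117, 0.111 and 0.109 without shLuc_dox replicates 1, 2 and 3, and was 0.125 with protein-coding scaling. Of its 50-base stretches, 10.7% also occur in other genes, and all of those of the pseudogene Ube2n-ps1 do. Ube2b, which modifies PCNA at stalled forks with Rad18, was at 59.0, 55.9 and 64.4 FPKM in shMettl3_dox libraries and 60.0, 60.9 and 58.0 FPKM in shLuc_dox libraries. The ranges overlapped, with a log2 change of 0.00 and a 95% interval from -0.13 to 0.14. Ube2a, its near copy, averaged 17.2 ± 1.22 FPKM in shMettl3_dox and 15.8 ± 0.599 FPKM in shLuc_dox, an interval from -0.02 to 0.26. Ube2t, the E2 of the Fanconi anaemia pathway, averaged 3.89 ± 0.281 FPKM in shMettl3_dox and 3.96 ± 0.363 FPKM in shLuc_dox. The Ubc13 cofactor Ube2v2 averaged 4.91 ± 0.282 FPKM in shMettl3_dox and 4.49 ± 0.301 FPKM in shLuc_dox. The other cofactor, Ube2v1, was below the threshold with 0.679 ± 0.144 FPKM in shMettl3_dox and 0.981 ± 0.448 FPKM in shLuc_dox. It shares 61.5% of its exon bases on the same strand with the readthrough gene Gm20431, which was listed at 0 FPKM, so its own level is uncertain.

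Of the 3 large or atypical E2s, 1 was higher and 2 did not pass. Ube2o (chr11:116537740-116581447, minus strand), which joins E2 and E3 activity in 1 protein, was at 16.9, 17.5 and 15.7 FPKM in shMettl3_dox libraries, against 14.8, 13.6 and 14.8 FPKM in shLuc_dox libraries. The groups did not overlap, with a log2 change of 0.20 (adjusted p = 0.0380 in limma, SE 0.0563). The adjusted p was 0.108 and 0.105 without shMettl3_dox replicates 1 and 2, 0.0763, 0.121 and 0.0691 without shLuc_dox replicates 1, 2 and 3, and 0.0596 with protein-coding scaling. Ube2q1 averaged 22.2 ± 1.42 FPKM in shMettl3_dox and 21.7 ± 0.718 FPKM in shLuc_dox, and Ube2q2 averaged 12.7 ± 1.34 and 12.9 ± 0.758 FPKM in the same order of groups. The name rule also took in 3 genes outside these roles. Of these limma called 0, while 1 had an unadjusted p under 0.05 (share over all tested genes not counted) and edgeR and DESeq2 called 1 each (backgrounds 33.0% and 33.4%). That gene is Ube2cbp, which is named for binding an E2 and encodes a ligase of the HECT type, at 7.22, 5.68 and 6.01 FPKM in shMettl3_dox libraries and 4.45, 5.47 and 3.72 FPKM in shLuc_dox libraries. Its groups did not overlap, and its adjusted p was 0.0577 by limma, 0.0368 by edgeR, 0.0342 by DESeq2, and in limma 0.0403 over genes that averaged 5 FPKM or more, 0.0302 with array weights and 0.0326 without shLuc_dox replicate 2. The pseudogene Ube2d-ps averaged 3.44 ± 0.168 FPKM in shMettl3_dox and 3.21 ± 0.258 FPKM in shLuc_dox. The pseudogene Ube2n-ps1 averaged 2.80 ± 1.09 FPKM in shMettl3_dox and 2.14 ± 0.790 FPKM in shLuc_dox, from 13 to 32 reads per library, all of which could stem from Ube2n.

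Relatives within the family were set against each other as ratios of FPKM within a library, which scaling leaves unchanged. In all, 10 pairs were compared. They were chosen with earlier results known. Some, such as Ube2e3 over Ube2e1, Ube2g2 over Ube2g1 and Ube2f over Ube2m, set a called gene over a relative that did not pass. Their separation therefore partly restates the calls, and no share of separate ratios among other gene pairs was counted. With 3 libraries each, an exact two-sided permutation test cannot go below p = 0.1, so no pair can pass 0.05. Ube2e3 over Ube2e1 was 3.41 ± 0.117 in shMettl3_dox and 2.55 ± 0.115 in shLuc_dox, and Ube2g2 over Ube2g1 was 1.91 ± 0.223 in shMettl3_dox and 1.46 ± 0.0609 in shLuc_dox. Ube2j1 over Ube2j2 was 1.48 ± 0.176 in shMettl3_dox and 1.12 ± 0.188 in shLuc_dox. For these pairs, for Ube2d1 over Ube2d3, for Ube2l6 over Ube2l3 and for Ube2f over Ube2m, the groups did not overlap and the exact permutation p was 0.1, or 0.167 adjusted over the 10 pairs. Ube2f over Ube2m was 0.0859 ± 0.00693 in shMettl3_dox and 0.0726 ± 0.00354 in shLuc_dox. The other 4 pairs overlapped, among them Ube2a over Ube2b, the copies of yeast Rad6, with 0.288 ± 0.0151 in shMettl3_dox and 0.264 ± 0.00921 in shLuc_dox (exact permutation p = 0.2).

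The motif GGACT is a frequent core of the sites that Mettl3 methylates, and its density was counted in 1 principal GENCODE M21 transcript per protein-coding gene. The median density was 1.41 per kb in the 10 E2 genes called higher, 1.82 per kb in the 2 called lower and 0.743 per kb in the 18 not called. Over all tested protein-coding genes it was 1.06 per kb in those called higher, 1.09 in those called lower and 1.03 in the others. Each of the 12 called E2 transcripts held the motif, as did 77.8% of the 18 not called. Over all tested protein-coding genes the motif was in 91.4% of those called higher, 94.4% of those called lower and 91.6% of the others, so its presence in the called E2 transcripts is near the background. The called E2 transcripts were also longer, with median lengths of 3434 bases among the higher and 3108 bases among the lower, against 1791 bases among those not called. Over all tested protein-coding genes the medians were 2650 bases among the higher, 3414 bases among the lower and 3064 bases among those not called, so the higher genes were the shorter ones there. These values describe the sequence and no methylation was measured.

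The enzymes around the E2s were followed in 12 lists of 107 genes in all, of which 104 were tested. Over these, 22 were higher and 6 lower, or 21.2% and 5.77%, against backgrounds of 14.6% and 13.5%. Their median level was 16.3 FPKM, against 8.66 FPKM over all tested genes. Among those that averaged 5 FPKM or more, 19 of 90 were higher and 6 lower. The backgrounds at that level were closer for the higher genes, at 20.4% higher and 14.9% lower. Leaving out shLuc_dox replicate 2 left 12 higher (background 8.37%) and 1 lower (8.76%). Leaving out shLuc_dox replicate 3 left 14 higher (9.47%) and 3 lower (9.94%). The count of lower genes was also 3 without shMettl3_dox replicates 1 (9.62%) or 2 (10.6%), and 2 without shLuc_dox replicate 1 (9.19%). Calls thus also became fewer over all tested genes in these runs. Of the 28 calls, 12 held in every alternative that tested the gene. The backgrounds of 14.6% and 13.5% also stand beside the count of each list below, and no list was tested as a set.

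Around the E2s of the endoplasmic reticulum, 2 of 8 ligases and cofactors were higher and 1 lower. Syvn1, the ligase that works with Ube2j1, was lower while Ube2j1 was higher, at 19.6, 20.3 and 18.7 FPKM in shMettl3_dox libraries, against 24.8, 25.3 and 22.3 FPKM in shLuc_dox libraries. It fell by 0.29 on the log2 scale (limma adjusted p = 0.0126), and its adjusted p came to 0.0504 with shLuc_dox replicate 1 left out and 0.0501 with shLuc_dox replicate 2 left out. Sel1l, the adaptor that holds Syvn1 in its complex, averaged 14.0 ± 0.116 FPKM in shMettl3_dox and 12.0 ± 0.489 FPKM in shLuc_dox (limma adjusted p = 0.0143), and was higher.

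Around the NEDD8 carriers, 7 of 15 genes of the cullin-RING core and its neddylation were higher (background 14.6%) and 8 did not pass. Of these 8, edgeR and DESeq2 called 1, Dcun1d3, lower (backgrounds of lower genes 16.7% and 17.1%). The 7 higher genes were the cullin Cul1, the RING subunits Rnf7 and Rbx1, the NEDD8 ligase cofactors Dcun1d1, Dcun1d2 and Dcun1d5, and the exchange factor Cand1. Rnf7 averaged 68.3 ± 3.84 FPKM in shMettl3_dox and 55.1 ± 2.27 FPKM in shLuc_dox, a log2 change of 0.31 (limma adjusted p = 0.00764). Cul1 averaged 49.6 ± 3.51 FPKM in shMettl3_dox and 40.3 ± 0.708 FPKM in shLuc_dox, and Dcun1d5 averaged 27.2 ± 0.272 and 23.1 ± 0.488 FPKM in the same order of groups. Cul1, Rnf7, Dcun1d5 and Dcun1d2 kept the call in every alternative that tested them. Rbx1 missed it without shLuc_dox replicate 2 (adjusted p = 0.0535). Dcun1d1 missed it without shMettl3_dox replicate 2 (0.0627) and without shLuc_dox replicates 1 (0.0830), 2 (0.0668) and 3 (0.0538), and Cand1 missed it without each library in turn, with adjusted p-values of 0.0647 to 0.141.

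Of 11 genes of ubiquitin and ubiquitin-like proteins, 2 were higher, among them Sumo3, a small modifier of nuclear proteins. Sumo3 averaged 40.2 ± 1.81 FPKM in shMettl3_dox and 35.0 ± 0.320 FPKM in shLuc_dox and missed the call in each leave-out except that of shMettl3_dox replicate 3, with adjusted p-values of 0.0520 to 0.0670. Ubb, a main ubiquitin gene, averaged 322 FPKM in shMettl3_dox and 317 FPKM in shLuc_dox and did not pass. Among 7 SUMO ligases 1 was lower, Pias3, with 10.9 ± 0.615 FPKM in shMettl3_dox and 13.6 ± 0.549 FPKM in shLuc_dox (limma adjusted p = 0.00912). Among 8 E1 genes tested, 2 were higher and 1 lower: Uba3, the catalytic subunit for NEDD8, averaged 23.6 ± 1.25 FPKM in shMettl3_dox and 19.8 ± 0.669 FPKM in shLuc_dox. Of the paired subunits of the SUMO E1, Uba2 averaged 45.1 FPKM in shMettl3_dox and 40.8 FPKM in shLuc_dox, and Sae1 99.98 FPKM in shMettl3_dox and 110.3 FPKM in shLuc_dox. Without shLuc_dox replicate 1 the adjusted p was 0.0541 for Uba3, 0.117 for Uba2 and 0.0639 for Sae1, and without shLuc_dox replicate 2 it was 0.05001, 0.0767 and 0.0908 in the same order of genes. Uba2 and Sae1 also missed the call without shMettl3_dox replicates 1 or 2 and without shLuc_dox replicate 3.

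Around Ube2h, limma called 0 of 9 genes of the CTLH ligase, while 2 had an unadjusted p under 0.05, both higher. The share of all tested genes with such a p was not counted. With edgeR and DESeq2, 1 of the 9, Armc8, was called higher (backgrounds of higher genes 16.4% and 16.3%). Around Ube2l3, 3 of 8 tested ligases were higher (background 14.6%): Sharpin and Rnf31, subunits of the linear-chain ligase, and Rnf19a. Sharpin averaged 14.3 ± 0.268 FPKM in shMettl3_dox and 11.8 ± 0.319 FPKM in shLuc_dox (limma adjusted p = 0.00574). Rnf19a missed the call without shLuc_dox replicate 1 (0.0553) or 3 (0.0552), and Rnf31 missed it in each leave-out except that of shMettl3_dox replicate 2, with adjusted p-values of 0.0858 to 0.134. Around Ube2l6, limma called neither of the 2 tested genes of the ISG15 branch, with 0 at an unadjusted p under 0.05. With edgeR and DESeq2, 1 of the 2, Herc6, was called lower (backgrounds of lower genes 16.7% and 17.1%). Isg15 itself averaged 40.6 ± 5.36 FPKM in shMettl3_dox and 37.5 ± 5.66 FPKM in shLuc_dox (limma adjusted p = 0.543). Usp18 and Uba7 of this list averaged below 1 FPKM over all libraries and were not tested. Usp18 was higher without overlap, at 1.22 ± 0.225 FPKM in shMettl3_dox and 0.340 ± 0.191 FPKM in shLuc_dox, from 7 to 104 reads per library. Uba7 was lower without overlap, at 0.770 ± 0.139 FPKM in shMettl3_dox and 0.900 ± 0.0105 FPKM in shLuc_dox. Around Ube2s, Fzr1, an activator of the anaphase-promoting complex, averaged 20.5 ± 0.748 FPKM in shMettl3_dox and 16.3 ± 1.58 FPKM in shLuc_dox and was called higher. Cdc16, a subunit of that complex, averaged 39.7 ± 1.58 FPKM in shMettl3_dox and 47.0 ± 2.37 FPKM in shLuc_dox and was called lower, and the other 9 genes of its list did not pass in limma. Without shLuc_dox replicate 2 the adjusted p was 0.0619 for Fzr1 and 0.0532 for Cdc16, and without shMettl3_dox replicate 1 that of Fzr1 was 0.0599. Of the 11 genes of this list, edgeR and DESeq2 each called 2 higher (backgrounds 16.4% and 16.3%) and 1 lower (16.7% and 17.1%).

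Around the DNA damage E2s, 4 of 7 genes of Fanconi monoubiquitination were higher (background 14.6%). They were the core complex subunits Faap100 and Fancb, the deubiquitinase Usp1 and its activator Wdr48. Fanci, which is ubiquitinated together with Fancd2, did not pass in limma, with 6.68 ± 0.340 FPKM in shMettl3_dox and 7.86 ± 1.00 FPKM in shLuc_dox (limma adjusted p = 0.135). It was the 1 gene of this list that edgeR and DESeq2 called lower (backgrounds of lower genes 16.7% and 17.1%). Usp1 averaged 42.0 ± 1.32 FPKM in shMettl3_dox and 33.1 ± 2.10 FPKM in shLuc_dox, a log2 change of 0.34 (limma adjusted p = 0.00532). Faap100 averaged 5.45 ± 0.575 FPKM in shMettl3_dox and 3.62 ± 0.141 FPKM in shLuc_dox, and Fancb averaged 8.16 ± 0.712 and 6.06 ± 0.421 FPKM in the same order of groups. Wdr48 missed the call without each library in turn, with adjusted p-values of 0.0623 to 0.120. Of 12 ligases of the Rad6 and Ubc13 branches, Ubr4 was lower with 17.7 ± 0.547 FPKM in shMettl3_dox and 20.1 ± 0.873 FPKM in shLuc_dox, and 11 did not pass. Of 7 E2s with other names, the UFM1 carrier Ufc1 was higher with 33.6 ± 1.62 FPKM in shMettl3_dox and 28.1 ± 1.62 FPKM in shLuc_dox. The autophagy E2 Atg3 was lower with 12.0 ± 0.715 FPKM in shMettl3_dox and 13.9 ± 0.447 FPKM in shLuc_dox. Among these 7, edgeR and DESeq2 each called 2 higher (backgrounds 16.4% and 16.3%) and 1 lower (16.7% and 17.1%). The SCF partner Cdc34, with the highest FPKM of these 7, averaged 171 ± 15.9 FPKM in shMettl3_dox and 189 ± 8.43 FPKM in shLuc_dox (limma adjusted p = 0.201). Without shLuc_dox replicate 2 the adjusted p was 0.0614 for Ufc1, 0.116 for Atg3 and 0.0789 for Ubr4. Ufc1 also missed the call without shMettl3_dox replicates 1 or 2 or shLuc_dox replicate 3, and Atg3 and Ubr4 missed it in each leave-out except that of shMettl3_dox replicate 3.

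**Figure D4:**
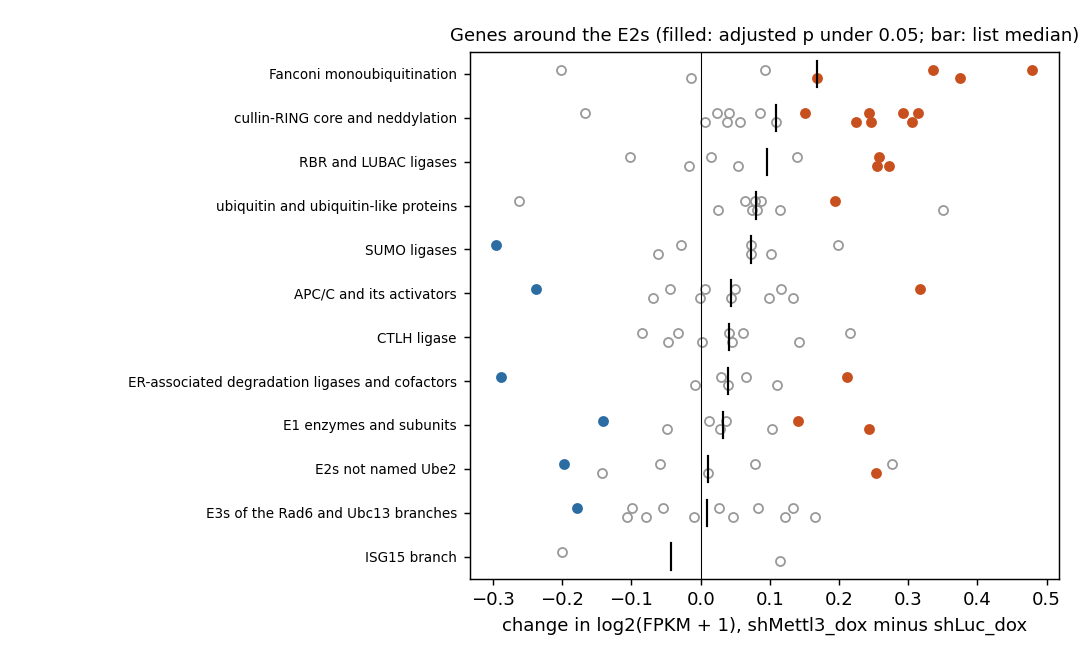
Change in log2(FPKM + 1), shMettl3_dox minus shLuc_dox, of 102 genes of 12 lists around the E2s, 1 point per gene, filled where the adjusted p was under 0.05, with a bar at the median of the points of each list. Faap100 has a change of 0.48 among the Fanconi genes, and 7 of the 15 cullin-RING and neddylation genes are filled on the higher side.

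The authors' deposited table of genes lower in shMettl3_dox holds 1960 genes. It lists Ube2h, with a log2 fold change of -0.34 and an adjusted p of 4.98e-06 in the authors' deposited table. Of the lists around the E2s, the authors' deposited table holds Syvn1, Cdc16, Ubr4, Pias3 and Sae1.

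**Figure D5:**
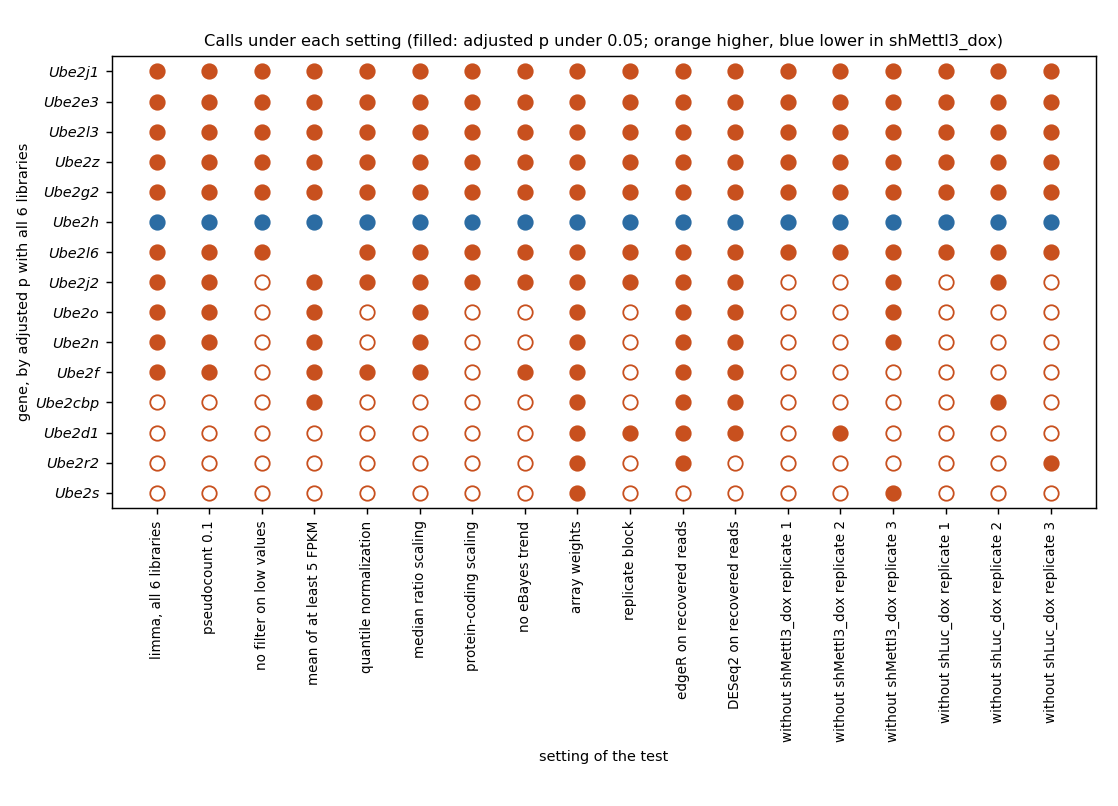
Calls of 15 E2 genes under limma with all 6 libraries and under each of 17 alternatives, filled where the adjusted p was under 0.05, orange for higher and blue for lower in shMettl3_dox. The 7 genes with the smallest adjusted p, Ube2j1, Ube2e3, Ube2l3, Ube2z, Ube2g2, Ube2h and Ube2l6, are filled in every column that tested them, and Ube2cbp, Ube2d1, Ube2r2 and Ube2s are filled under alternatives alone.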

How the data were processed

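Total RNA of 6 libraries was sequenced, per the labels. Per the submitters' processing notes, the build was mm10 and the tools included STAR, fastp, DESeq2 and featureCounts 1.5.3, with no roles or parameters. The authors deposited FPKM for 54532 genes. The authors also deposited 1960 genes as lower, with the signal of each library as a normalized read count, and log2 fold changes and p-values of the authors' own, made by a test that these sources do not name.

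The limma 3.58.1 test (R 4.3.3) was run on log2(FPKM + 1) with an intensity trend in eBayes, two-sided, on the 12098 genes that averaged 1 FPKM or more, with Benjamini-Hochberg adjustment over all of them and a threshold of 0.05. Log2 changes on this scale understate those of low genes; ratios are of mean FPKM. Multiplied by the GENCODE M21 exon length, FPKM came within 0.001 of whole reads in 96.7% of genes above 0; another whole length served for 872 genes, whose reads are known up to a common multiple, and 1 gene was left out. On these reads, edgeR 4.0.16 (quasi-likelihood) called 3993 genes and DESeq2 1.42.0 called 3880, against 3396 by limma. Python 3.11.15, numpy 2.4.6, pandas 2.3.3 and matplotlib 3.10.9 served for the rest.

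The genes, role lists, surrounding lists, pairs and motifs were chosen with earlier results of these data known. Values in every library are given for the E2 genes called and the 6 with the highest FPKM. For genes of the surrounding lists values are given by smallest p, up to 3 a list. Values of Ube2cbp in every library, and of Ubb, Isg15, Cdc34, Fanci, Usp18 and Uba7, were added after their values were seen. The p-values cover the spread between libraries alone, which may be technical, since nothing says that they came from separate cultures. Within groups, replicates differed beyond sampling noise (chi-square of 3.27 to 11.7 per degree of freedom). The test was also run on simulated reads whose means and dispersions came from these data, and no result here rests on it. Some genes that these rules would name are counted but not reported here.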

Additional observations from a re-analysis of the deposited data

How the results depend on the processing

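Of the 17 alternatives (another pseudocount, 2 filters, 3 scalings, eBayes without the trend, array weights, a replicate block, edgeR, DESeq2 and leaving out each library), protein-coding scaling was chosen after seeing the data. The E2 genes called higher were 10 (background 14.6%), or 6 with no filter on low values (4.47%) and 6 to 10 when 1 library was left out (8.37% to 15.3%). They were 13 with edgeR (background 16.4%), 12 with DESeq2 (16.3%) and 14 with array weights (19.6%). The E2 genes called lower were 2 (background 13.5%), or 1 to 2 when 1 library was left out (8.76% to 13.6%). Of the genes around them, 22 were higher (14.6%), or 12 to 21 when 1 library was left out (8.37% to 15.3%). Of the same genes 6 were lower (13.5%), or 3 without the eBayes trend (13.1%) and 1 to 7 when 1 library was left out (8.76% to 13.6%). With edgeR, 25 were higher and 9 lower (backgrounds 16.4% and 16.7%), and DESeq2 gave the same counts (16.3% and 17.1%). No named E2 gene that was called turned in direction. Of the 12 calls 7 held throughout and 5 (among them Ube2j2, Ube2o, Ube2n and Ube2f) were lost at least once, and 4 genes were called under alternatives alone. With no filter on low values the adjusted p was 0.0871 for Ube2n, 0.0759 for Ube2o and 0.104 for Ube2f; with quantile normalization it was 0.104 for Ube2n and 0.0516 for Ube2o, and without the eBayes trend 0.0710 for Ube2n and 0.0558 for Ube2o. Protein-coding scaling ended the calls of Uba2, Wdr48, Rnf31, Dcun1d1 and Cand1, with adjusted p-values of 0.0517 to 0.144. The cause of these losses was not tested.

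No pairing by replicate number was evident: deviations from the group means of same-numbered libraries correlated by 0.03, -0.01 and 0.06. Of the 6 libraries, 3 correlated best with their own number. With so few libraries this cannot exclude a pairing. With the replicate block 8 E2 genes were higher (background 13.9%) and 2 lower (12.6%). Of the genes around them, 22 were higher and 5 lower, beside the same backgrounds. In that limma run Ube2o, Ube2n and Ube2f had adjusted p-values of 0.0710, 0.0562 and 0.0627, and Ube2d1 of 0.0434.

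Depth limits the low genes: Ube2n-ps1 rested on 13 to 32 reads and Ube2l6 on 70 to 174 reads per library, while Ube2m had 2514 to 4081.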
